A study of Mus musculus with 39 samples.

Results

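Prenatal immune stress can be modelled in mice by activating the mother's immune system during pregnancy (maternal immune activation, MIA), and a second hit in adult life then tests how the offspring's microglia respond. The comparison described here asks whether the change that lipopolysaccharide (LPS) produced in striatal microglia differed between MIA and control (CON) offspring within the arm labelled PLX. It is a difference of differences, the LPS-minus-saline change in MIA:PLX minus the LPS-minus-saline change in CON:PLX, called the interaction below. All libraries whose labels place them in these 4 groups were taken, except MIA_PLX_SAL replicate 1, whose title says to exclude it without a reason. This left 19 of the 39 libraries of the series, namely 4 of CON_PLX_SAL, 6 of CON_PLX_LPS, 3 of MIA_PLX_SAL (replicates 2 to 4) and 6 of MIA_PLX_LPS.

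All 4 groups came from male mice of 8 to 10 weeks. Microglia were taken from the striatum 18 hours after an intraperitoneal injection of saline or of LPS at 4500 endotoxin units per g of body weight, and sorted as live, CD11b-positive, CD45-low and P2RY12-positive cells. CON and MIA are the prenatal terms of the labels, which name no strain or genotype. Every library here carries PLX, which the labels do not define, so neither its dose nor its timing is known here; compounds with PLX names include inhibitors of the CSF1 receptor that deplete microglia, after which the population regrows. Nothing in the labels states that each replicate is its own animal. The p-values therefore cover the spread among these libraries, which may be technical.

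LPS is a cell wall component of Gram-negative bacteria. It is recognised by TLR4 with its co-receptor MD-2 (Ly96), which signals through NF-kB to cytokine and chemokine genes and through interferon regulatory factors to type I interferon, whose receptor then induces interferon-stimulated genes. Microglia that respond to it lower the genes that mark the resting state, such as the purinergic receptor P2ry12, and raise surface receptors, acute-phase proteins and chemokines. A response that is changed by earlier exposure is called trained when it is larger and tolerant when it is smaller.

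Levels are in CPM, that is counts divided by library size and normalized between libraries, and changes are on the log2 scale with their standard error (SE) from edgeR's quasi-likelihood fit. Totals of the 19 libraries ran from 1510020 to 5746239 counts. Mitochondrial ribosomal RNA took 10.2% to 13.7% of counts in the saline libraries and 14.4% to 19.2% after LPS, except in MIA_PLX_LPS replicate 2 with 9.16%. Transcripts of the gate were present in all libraries. Itgam (CD11b) was at 869 to 2149.6 CPM, Ptprc (CD45) at 335 to 827 CPM and P2ry12 at 154 to 2860.1 CPM. Of 7 listed lymphocyte genes, Cd3g and Nkg7 were at 0 in all 19 libraries. Cd3e, Ms4a1 and Gzma were each at 0 in 18 of them, Cd79a in 12 and Cd8a in 10. Summed over the 7 genes, the highest level was 1.39 CPM, in a MIA:PLX LPS library. Single libraries stood apart for other cell types: MIA_PLX_SAL replicate 3 held Ttr at 430.2 CPM, and CON_PLX_SAL replicate 2 held Hbb-bs at 70.3 CPM. MIA_CON_LPS replicate 6, a library without PLX that enters the shared estimate of spread, the choice of LPS response genes and the comparison with the arms without PLX, was close to a repeat of the excluded MIA_PLX_SAL replicate 1 (chi-square over degrees of freedom 1.53, the lowest of all pairs, with 2.42 for the next).

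No gene of 13420 tested passed the test for an interaction. LPS changed many genes in both prenatal arms and in the same direction, and edgeR called 0 genes (0%) for a difference between the 2 changes, with a lowest adjusted p of 0.999943. At an unadjusted p under 0.05 there were 393 genes (2.93%), 199 with a positive (1.48%) and 194 with a negative interaction (1.45%), and 40 genes at an unadjusted p under 0.01. DESeq2 and voom with sample quality weights also called 0, with 250 positive and 206 negative genes at an unadjusted p under 0.05 in DESeq2 and 536 and 588 in voom. Over all genes the median interaction was -0.01 (quartiles -0.30 to 0.28). The design limits what this count can show: the median SE of an interaction was 0.459 and the median half-width of its 95% interval 0.93, or 0.611 for the 4500 genes at an average log2 CPM of 5 or more. Of all tested genes, 4453 (33.2%) had an interval that lay inside -1 to 1, that is, within a 2-fold difference of the LPS changes in either direction.

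The LPS changes themselves were large in both arms. In CON:PLX 2354 genes rose (17.5%) and 1874 fell (14.0%), whereas in MIA:PLX 1589 rose (11.8%) and 1401 fell (10.4%), each at an adjusted p under 0.05 by edgeR. Counts of list members that rose or fell, given below, use the same threshold and are to be read beside these shares. The lists and their members were chosen with earlier results of these data known. A high count of members that rose or fell may follow in part from that choice and is a description, not a test. A member that is not counted can still have changed. Both arms called 2417 genes, all in the same direction and 0 in opposite directions, which was 57.2% of the CON:PLX calls and 80.8% of the MIA:PLX calls. Of the 1811 genes called only in CON:PLX, 1731 had the same sign in MIA:PLX, and of the 573 called only in MIA:PLX, 550 had the same sign in CON:PLX. The counts of calls are not a test of a difference, since CON:PLX has 4 saline libraries and MIA:PLX 3, and the median SE of an LPS change was 0.306 in CON:PLX and 0.345 in MIA:PLX. Across genes, which are not independent replicates, the changes of the 2 arms correlated with r = 0.845.

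**Figure D1:**
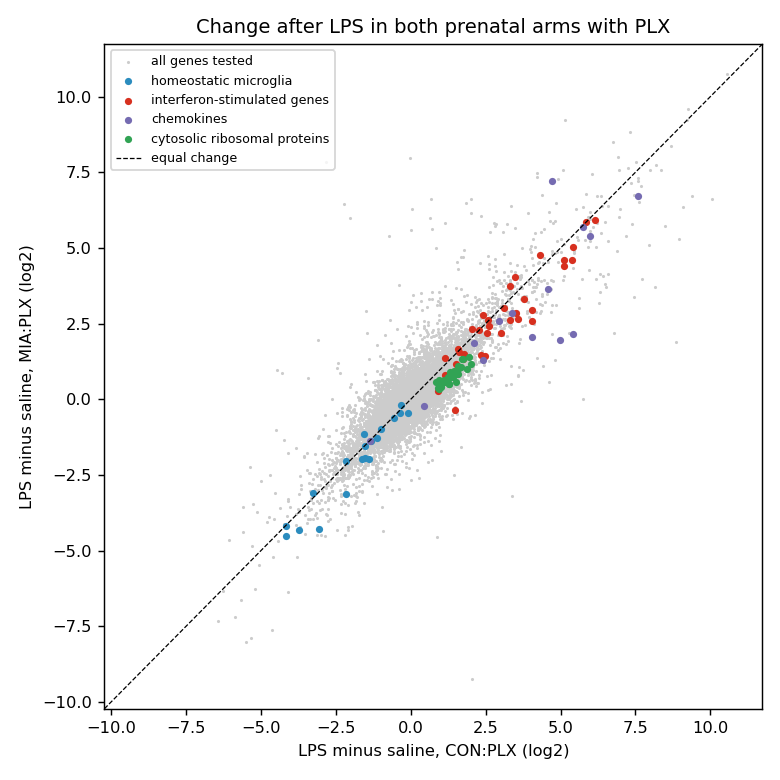
LPS-minus-saline change in CON:PLX (x axis, log2) and in MIA:PLX (y axis, log2) for the 13420 genes tested, with 4 gene lists in colour and the line of equal change dashed. The homeostatic genes lie at the lower left and the interferon-stimulated genes at the upper right, while the 35 ribosomal protein genes all lie below the line.

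The size of the response was measured on genes picked by their LPS change in the arms without PLX: 787 genes higher and 547 lower in both of those arms. The fit that picked them shared its filter, normalization and estimate of spread with the 19 libraries. A library's score was its mean log2 CPM over these 1334 genes, with the sign of the lower genes turned. Scores of the saline libraries lay between -0.297 and -0.176 in both prenatal groups with PLX. After LPS, the 6 CON:PLX libraries stood 1.65 to 2.53 above the mean of their saline group (median 2.00) and the 6 MIA:PLX libraries 1.73 to 2.20 above theirs (median 2.01). The MIA:PLX values lay within the CON:PLX range. The mean response was 2.05 in CON:PLX and 2.01 in MIA:PLX, 98.1% of the former, a difference of -0.04 ± 0.149 (SE; exact two-sided permutation p = 0.797, with 3.09e-05 the smallest the 32340 relabelings allow). Leaving out single libraries moved this difference between -0.12 and 0.06, and its sign turned without CON_PLX_LPS replicate 1 or 5 or MIA_PLX_LPS replicate 2.

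**Figure D2:**
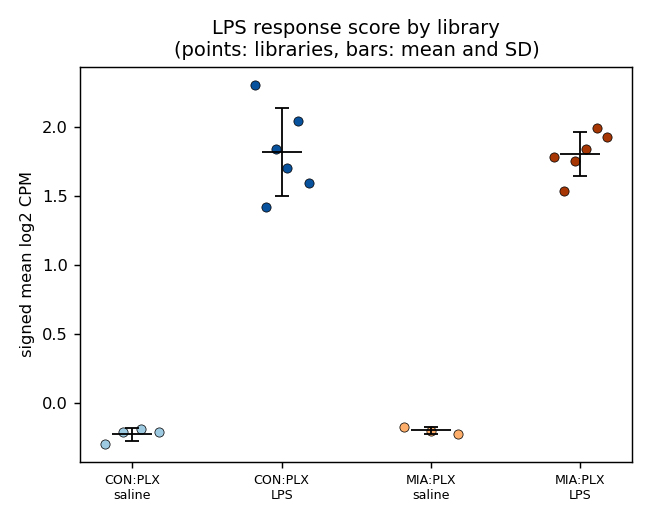
LPS response score (signed mean log2 CPM over 1334 genes chosen in the arms without PLX) of each of the 19 libraries with PLX, with the mean and SD of each group. Both LPS groups stand about 2 log2 units above their saline groups, and the CON:PLX LPS libraries spread more widely than the MIA:PLX LPS libraries.

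Direction was shared gene by gene. All 787 higher and all 547 lower genes had the same sign in both PLX arms; edgeR called 734 and 521 of them in CON:PLX, and 676 and 471 for the MIA:PLX arm. Their median interaction was -0.09 for the higher genes and 0.01 for the lower genes. The interval of the interaction lay inside -1 to 1 for 123 of the higher and 77 of the lower genes, and for the other genes of both sets it reached past a 2-fold difference in at least one direction.

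Homeostatic genes fell in both arms. Of 19 listed genes that mark resting microglia, 15 fell in CON:PLX and 17 in MIA:PLX, 13 had a negative and 6 a positive interaction, and the median interaction was -0.12. P2ry12 (ENSMUSG00000036353.13), a purinergic receptor that was also the sort gate, stood at 2591, 2317, 2490.03 and 2582 CPM in the CON:PLX saline libraries and 2758, 2597 and 2860.1 CPM in the MIA:PLX saline libraries. After LPS it stood at 154 to 381 CPM (median 251) in CON:PLX and 277 to 382 CPM (median 308) in MIA:PLX. All LPS libraries were below all saline libraries, and the LPS groups of the 2 arms overlapped. It fell by 3.25 ± 0.329 in CON:PLX and by 3.10 ± 0.343 in MIA:PLX on the log2 scale (edgeR adjusted p 3.71e-09 and 4.57e-08), and the interaction was 0.15 ± 0.478 (95% interval -0.82 to 1.12). In bulk RNA of sorted cells, fewer cells with a transcript and less of it per cell cannot be told apart.

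Tmem119, a membrane protein of resting microglia, was at 919, 732, 845 and 867 CPM in the CON:PLX saline libraries and 932, 891 and 880.4 CPM in the MIA:PLX saline libraries. It spread over 70.1 to 575 CPM (median 277) in CON:PLX and 183 to 312 CPM (median 228) in MIA:PLX after LPS, again with no overlap between LPS and saline in either arm. Its interaction was -0.41 ± 0.621. Gpr165, an orphan receptor, had the smallest interaction p of the list (0.158, not passing after adjustment) with a value of -1.22 ± 0.842. It stood at 110.04, 104, 119 and 110.3 CPM in the CON:PLX saline libraries and 127, 108 and 116 CPM in the MIA:PLX saline libraries, and at 2.65 to 37.6 CPM (median 10.2) in CON:PLX and 3.84 to 8.49 CPM (median 5.88) in MIA:PLX after LPS, where MIA:PLX had the narrower range, inside that of CON:PLX.

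Olfml3, a secreted extracellular matrix protein, was at 1156, 1052, 1012 and 1138 CPM in the CON:PLX saline libraries and 1165, 1090.4 and 1272 CPM in the MIA:PLX saline libraries, and at 85.7 to 762 CPM (median 147) in CON:PLX and 97.6 to 217 CPM (median 115) in MIA:PLX after LPS. The highest CON:PLX LPS value belonged to replicate 2, above the other 5 libraries. Cx3cr1, the receptor for the neuronal chemokine fractalkine, had an interaction of -0.60 ± 0.890, with LPS levels of 195 to 1395 CPM (median 616) in CON:PLX and 138 to 780.2 CPM (median 501) in MIA:PLX. Csf1r, the receptor for CSF1 and IL-34 on which microglia depend, had one of -0.12 ± 0.221 (95% interval -0.56 to 0.33); its LPS levels were 2569 to 4394 CPM (median 3607) in CON:PLX and 2744 to 3889 CPM (median 3467) in MIA:PLX.

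**Figure D3:**
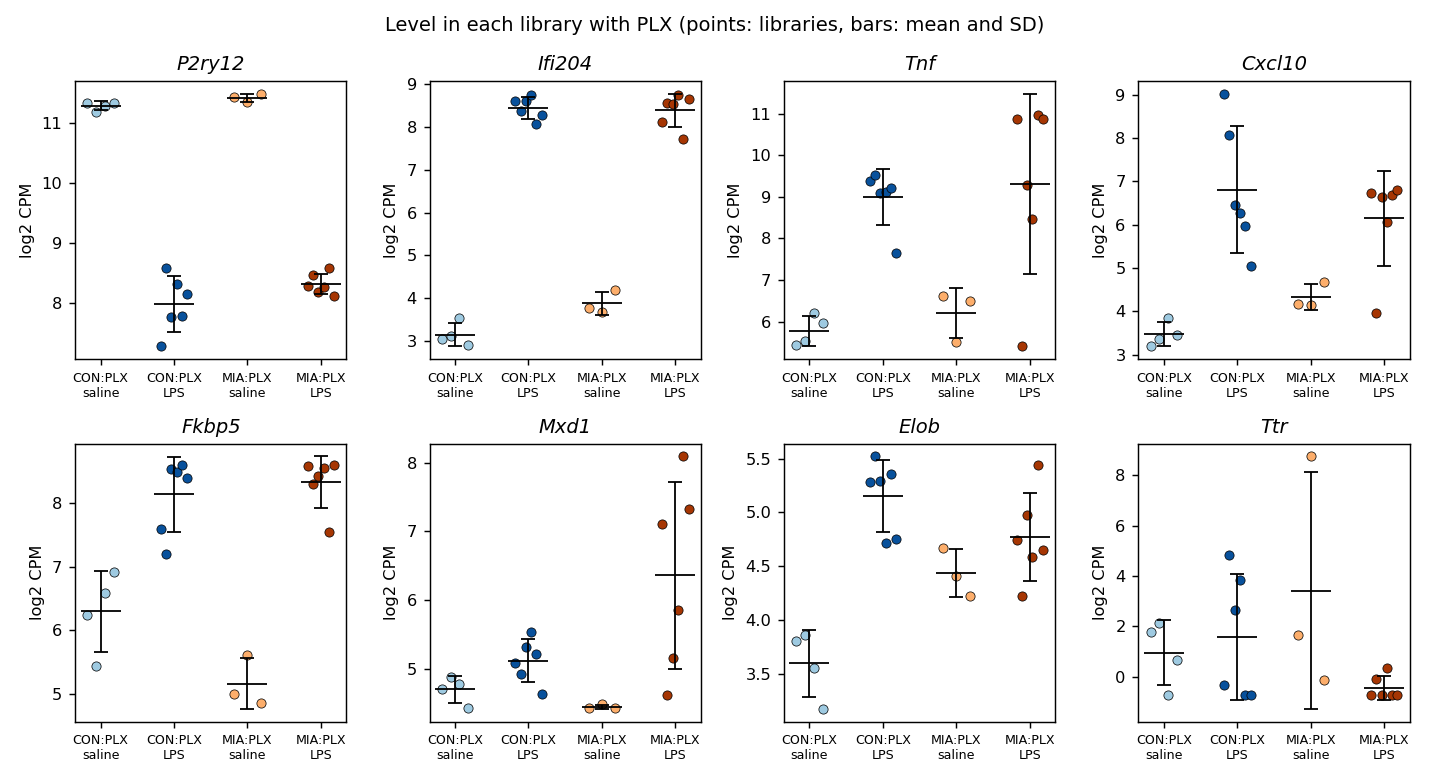
Level (log2 CPM) of 8 genes in each of the 19 libraries with PLX, with the mean and SD of each group. P2ry12 and Ifi204 separate LPS from saline in both prenatal arms, Tnf and Cxcl10 show one low MIA:PLX LPS library (replicate 2), and Ttr is high in one MIA:PLX saline library (replicate 3).

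Inflammatory mediators controlled by NF-kB rose in both arms. Of 24 listed genes, 16 rose in CON:PLX and 15 in MIA:PLX, none fell in either, and the median interaction was 0.05 (15 positive, 9 negative). Leaving out single libraries gave medians of -0.17 to 0.39, and the sign turned in 11 of the 19 cases. Tnf (ENSMUSG00000024401.14), a cytokine released early by activated myeloid cells, stood at 42.5, 45.7, 72.6 and 61.6 CPM in the CON:PLX saline libraries and 96.9, 45.0 and 89.7 CPM in the MIA:PLX saline libraries. After LPS it stood at 200.2 to 738 CPM (median 577) in CON:PLX and 41.6 to 2007 CPM (median 1250.5) in MIA:PLX. The MIA:PLX libraries spread over a wider range and held both the highest and the lowest value, the lowest being replicate 2. Tnf rose by 3.31 ± 0.772 (CON:PLX) and by 3.87 ± 0.903 (MIA:PLX), with edgeR adjusted p of 0.00133 and 0.00212. The interaction was 0.56 ± 1.0 (95% interval -1.49 to 2.61). With single libraries left out it ran from 0.27 without MIA_PLX_SAL replicate 3 to 0.81 without MIA_PLX_LPS replicate 2.

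Il1b, the precursor of interleukin 1 beta, was at 23.6, 22.1, 28.8 and 37.0 CPM in the CON:PLX saline libraries and 129.7, 18.2 and 62.5 CPM in the MIA:PLX saline libraries. After LPS it reached 184 to 940.5 CPM (median 208) in CON:PLX and 8.68 to 1889.8 CPM (median 389) in MIA:PLX, and MIA_PLX_LPS replicate 2 with the lowest value lay below the saline libraries. Its interaction was -0.12 ± 1.55, and ran from -0.61 to 0.67 with single libraries left out, with the sign turned in 5 of 19 cases. Bcl3, an atypical IkB protein that acts in the nucleus, stood at 1.80, 2.43, 2.01 and 2.27 CPM in the CON:PLX saline libraries and 4.48, 3.22 and 2.81 CPM in the MIA:PLX saline libraries, and every MIA:PLX saline library was above every CON:PLX saline library. Its LPS levels were 25.8 to 88.3 CPM (median 42.2) in CON:PLX and 28.1 to 53.3 CPM (median 37.9) in MIA:PLX, which overlapped. The LPS change was 4.54 ± 0.448 in CON:PLX and 3.47 ± 0.485 in MIA:PLX, with an interaction of -1.07 ± 0.639.

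Of 14 listed chemokine genes, 12 rose in CON:PLX and 6 in MIA:PLX, and 1 fell in each arm. The median interaction was -0.65 (13 negative, 1 positive) beside -0.01 over all genes, and -0.13 without CON_PLX_LPS replicate 1. Cxcl10, an interferon-induced chemokine, was at 8.59, 9.72, 13.8 and 10.4 CPM in the CON:PLX saline libraries and 17.4, 17.1 and 25 CPM in the MIA:PLX saline libraries, where all 3 MIA:PLX libraries lay above all 4 CON:PLX libraries. After LPS it was at 32.3 to 519 CPM (median 82.1) in CON:PLX and 14.9 to 109.9 CPM (median 101) in MIA:PLX, so that CON:PLX held the highest values and MIA:PLX the lowest. The change was 4.03 ± 0.830 in CON:PLX (edgeR adjusted p 0.000355) and 2.05 ± 0.849 in MIA:PLX (adjusted p 0.0811, which missed the threshold). The interaction was -1.98 ± 1.07 (95% interval -4.16 to 0.20), -1.76 without MIA_PLX_LPS replicate 2 and -1.25 without CON_PLX_LPS replicate 1.

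Ccl12, a mouse ligand of the monocyte receptor CCR2, had the lowest interaction p of the chemokines (0.0342, adjusted p 0.999943 by edgeR) with -3.05 ± 1.37. It stood at 11.2, 9.94, 14.1 and 16.9 CPM in the CON:PLX saline libraries and 24.7, 21.4 and 26.6 CPM in the MIA:PLX saline libraries, and at 51.5 to 1690.5 CPM (median 140.2) in CON:PLX and 36.9 to 199.7 CPM (median 84.9) in MIA:PLX after LPS. The highest CON:PLX value belonged to replicate 2, without which the interaction was -1.67. Ccl2, another CCR2 ligand, rose by 2.40 ± 0.800 in CON:PLX (edgeR adjusted p 0.0216), and its change in MIA:PLX was 1.29 ± 0.858 (adjusted p 0.309). Its levels after LPS were 33.3 to 209 CPM (median 66.4) in CON:PLX and 30.5 to 87.5 CPM (median 53.0) in MIA:PLX. Ccl5, a T cell and monocyte chemoattractant named after its values were seen, was at 38.1 to 497 CPM (median 59.8) in CON:PLX and 21.5 to 78.4 CPM (median 62.4) in MIA:PLX after LPS, and replicate 1 of CON:PLX held the highest value.

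Interferon-stimulated genes rose as a group. Of 34 listed genes 33 rose in CON:PLX and 29 in MIA:PLX, none fell, and 25 had a negative and 9 a positive interaction, with a median of -0.35. To show what these genes share beyond the list, 60-base windows upstream of 4 of them hold the letters GAAA, any 2 bases, then GAAA, the core of the interferon-stimulated response element bound by IRF and STAT factors. Searched on both strands from 250 bases before to 50 after each RefSeq start (GRCm38.p6), with matches that overlap counted, the letters lay in 17 of the 25 listed genes with such a promoter (68%) against 1079 of 27025 genes (3.99%). Every match inside a window is in capitals, 5′ to 3′ on the strand of the gene, and overlapping matches run together:
Isg15 (chr4:156200862-156200921, minus strand): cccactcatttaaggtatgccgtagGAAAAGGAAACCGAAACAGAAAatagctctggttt
Ifi207 (chr1:173741816-173741875, minus strand): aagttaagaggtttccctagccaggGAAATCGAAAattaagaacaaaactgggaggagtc
Rsad2 (chr12:26456538-26456597, minus strand): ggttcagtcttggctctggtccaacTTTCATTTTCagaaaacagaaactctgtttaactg
Ifit1 (chr19:34640760-34640819, plus strand): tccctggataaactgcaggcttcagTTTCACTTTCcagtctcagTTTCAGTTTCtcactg
In Isg15 and Ifi207 the matches lie on the strand of the gene, and in Rsad2 and Ifit1 on the other. The median interaction of the 17 genes with the letters was -0.39, and 0.00 for the 8 without them in the window, which says only that these letters are not there.

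Ifi204 (ENSMUSG00000073489.6), a DNA sensor of the Ifi200 family, was at 7.59, 7.95, 10.9 and 6.81 CPM in the CON:PLX saline libraries and 12.9, 12.1 and 17.5 CPM in the MIA:PLX saline libraries. After LPS it was at 268 to 428 CPM (median 361) in CON:PLX and 212 to 431 CPM (median 376) in MIA:PLX, so that the 2 arms overlapped. Ifi204 rose by 5.39 ± 0.369 (CON:PLX) and by 4.60 ± 0.403 (MIA:PLX), with edgeR adjusted p of 4.51e-13 and 4.39e-10. The saline groups did not overlap, with the MIA:PLX libraries higher, and the interaction was -0.79 ± 0.451. With the libraries marked for exclusion included it was -2.46.

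Dhx58, an RNA helicase that regulates RIG-I signalling, stood at 6.59, 5.97, 5.14 and 6.49 CPM in the CON:PLX saline libraries and 12, 7.50 and 10.6 CPM in the MIA:PLX saline libraries with no overlap, and at 16.4 to 40.5 CPM (median 29.4) in CON:PLX and 15.9 to 33.6 CPM (median 30.5) in MIA:PLX after LPS. Its interaction was -0.85 ± 0.416 at an unadjusted p of 0.0473, the lowest of the list. Ifi207, named after its values were seen, was at 321 to 427 CPM (median 349) in CON:PLX and 224 to 619.8 CPM (median 374) in MIA:PLX after LPS and had an interaction of -0.23 ± 0.476. Isg15, a ubiquitin-like modifier, stood at 6.87 to 21.2 CPM (median 14.9) in CON:PLX and 6.64 to 15.8 CPM (median 12.3) in MIA:PLX after LPS and had one of -0.67 ± 0.712. For Ifit1, which binds viral RNA, the value was -1.47 ± 1.02, with 12 to 55.9 CPM (median 16.7) in CON:PLX and 3.32 to 20.1 CPM (median 11.8) in MIA:PLX after LPS. Both of these were chosen after their values were seen. Single MIA:PLX saline libraries moved these 3 values: without replicate 3 they were 0.21 for Ifi207 and -0.07 for Isg15, and the Ifit1 value was -0.23 without replicate 4. With the libraries marked for exclusion included, the values were -2.98 for Ifi207, -1.50 for Isg15 and -2.13 for Ifit1.

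Genes of MHC class I presentation were called for LPS in both arms, and few of class II were. Of 14 listed MHC class I and processing genes, 11 rose in CON:PLX and 7 in MIA:PLX, and 12 of 14 had a negative interaction (median -0.48). H2-K1, a classical class I heavy chain, was at 153, 161, 187 and 173 CPM in the CON:PLX saline libraries and 228, 246 and 224 CPM in the MIA:PLX saline libraries, without overlap, and at 300.1 to 569 CPM (median 391) in CON:PLX and 217 to 456 CPM (median 379) in MIA:PLX after LPS. Its interaction was -0.65 ± 0.312 (95% interval -1.28 to -0.02). Psmb10, a subunit of the immunoproteasome, was at 14.0, 19.9, 16.5 and 23.4 CPM in the CON:PLX saline libraries and 31.9, 25 and 25 CPM in the MIA:PLX saline libraries, again without overlap, and its interaction was -0.85 ± 0.404. Its LPS libraries were at 34.7 to 67.6 CPM (median 50.6) in CON:PLX and 23.3 to 68.3 CPM (median 40.2) in MIA:PLX. The 6 measured MHC class II genes all had negative interactions (median -0.73), with 2 rising in CON:PLX and 1 in MIA:PLX. Their median LPS change was 1.27 in CON:PLX and -0.15 in MIA:PLX.

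Most listed scavenger and inducible surface receptors rose in both arms. Of 13 measured scavenger and inducible receptors, 12 rose in each arm, and the median interaction was -0.20. Msr1, a scavenger receptor for modified lipoproteins, named after its values were seen, stood at 3.20, 2.21, 4.24 and 7.14 CPM in the CON:PLX saline libraries and 2.80, 4.29 and 1.88 CPM in the MIA:PLX saline libraries and at 531 to 1690.2 CPM (median 933) in CON:PLX and 379 to 883 CPM (median 515) in MIA:PLX after LPS. Its LPS change was 8.00 ± 0.523 in CON:PLX and 7.58 ± 0.604 in MIA:PLX, with an interaction of -0.42 ± 0.683, which was -0.12 without MIA_PLX_SAL replicate 3 and -3.97 with the marked libraries included (edgeR adjusted p 0.999973). Fcgr4, an activating Fc receptor also named after its values were seen, was at 180.1 to 350.2 CPM (median 239) in CON:PLX and 145 to 241 CPM (median 185) in MIA:PLX after LPS and at 4.87 to 7.19 CPM (median 5.11) or 4.76 to 7.50 CPM (median 6.79) in the saline groups of CON:PLX and MIA:PLX. Its interaction was -0.56 ± 0.431, or -2.05 with the marked libraries included.

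Trem1, an amplifier of myeloid activation, was at 0 in every saline library of both arms, so no fold is given; after LPS it was at 6.89 to 114 CPM (median 49.9) in CON:PLX and 37.8 to 86.8 CPM (median 65.6) in MIA:PLX. Of 9 acute-phase and iron genes, 7 rose and 1 fell in CON:PLX, 5 rose and 1 fell in MIA:PLX, and the median interaction was -0.24. Saa3, an acute-phase serum amyloid, stood at 0.399, 0, 1.56 and 1.30 CPM in the CON:PLX saline libraries and 0.280, 8.22 and 0 CPM in the MIA:PLX saline libraries, and at 118 to 1136 CPM (median 351) in CON:PLX and 73.6 to 329 CPM (median 243) in MIA:PLX after LPS. Its interaction of -2.72 ± 1.64 was 1.11 without MIA_PLX_SAL replicate 3, which held 8.22 CPM. Lcn2, a lipocalin that binds bacterial siderophores, had an interaction of -0.18 ± 1.75, and -4.20 without CON_PLX_SAL replicate 2, which held 11.7 CPM.

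The genes that sense LPS moved in both directions. Of 19 measured genes of LPS sensing and its negative regulators, 9 rose and 2 fell in CON:PLX, 4 rose and 2 fell in MIA:PLX, and the median interaction was -0.08. Tlr4, the LPS receptor, was at 133, 112, 135 and 141 CPM in the CON:PLX saline libraries and 111, 138 and 109 CPM in the MIA:PLX saline libraries, at 39.4 to 134 CPM (median 129) in CON:PLX and 51.2 to 151 CPM (median 119) in MIA:PLX after LPS, and had an interaction of 0.16 ± 0.538. Ly96, which encodes MD-2, was at 11.8, 11.5, 12.5 and 17.5 CPM in the CON:PLX saline libraries and 25.2, 21.8 and 21.6 CPM in the MIA:PLX saline libraries, where the MIA:PLX libraries all lay above the CON:PLX libraries. Its LPS levels were 5.31 to 16.2 CPM (median 8.71) in CON:PLX and 1.55 to 13.1 CPM (median 6.94) in MIA:PLX. Ly96 fell by 1.76 ± 0.460 in MIA:PLX (edgeR adjusted p 0.00503), its change in CON:PLX was -0.42 ± 0.416 (adjusted p 0.481), and the interaction was -1.34 ± 0.630 at an unadjusted p of 0.0404.

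Complement and phagocytic receptor genes rose in 11 of 20 in CON:PLX and 10 of 20 in MIA:PLX, and fell in 1 and 3. Their median interaction was -0.37 (16 of 20 negative). Glycolysis genes rose in 10 of 16 and 6 of 16, with a median interaction of -0.48, and genes of oxidative phosphorylation rose in 13 of 16 and 6 of 16, with -0.21. None of the genes in these 3 lists passed the interaction test. Among the lists not described elsewhere, the median interaction was 0.18 for 14 disease-associated microglia genes, 0.09 for 14 cholesterol synthesis genes, -0.09 for 14 components of interferon signalling and -0.16 for 21 immediate early and dissociation stress genes. Over the measured members it was -0.66 for 10 genes of the unfolded protein response, -0.39 for 12 cell cycle genes, -0.16 for 20 chromatin regulators and -0.71 for 8 genes of a list named for brain-engrafted macrophages. That list shares Fcrls with the homeostatic list, and its members Ms4a7 and Clec12a were not measured.

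**Figure D4:**
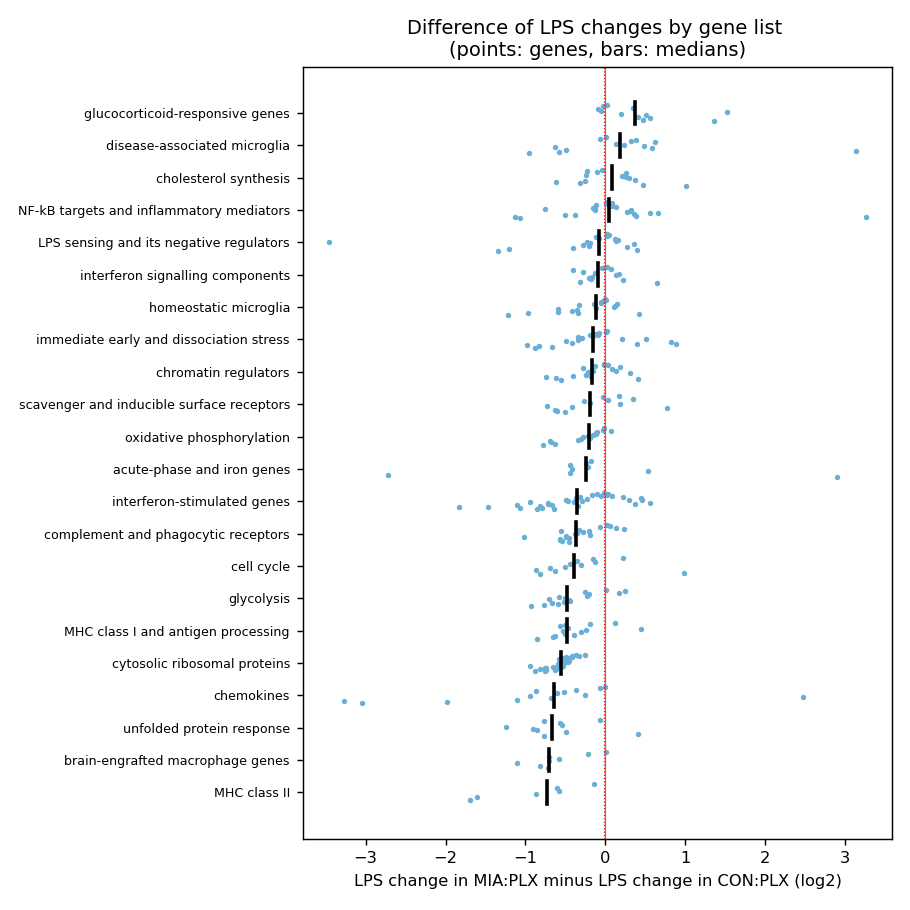
Interaction (LPS change in MIA:PLX minus LPS change in CON:PLX, log2; x axis) of each measured gene (points) by gene list, with the list median as a black bar, the zero line in grey and the median of all genes dotted in red. Cell type marker lists other than homeostatic microglia are not drawn, and the medians drawn run from -0.73 for MHC class II to 0.37 for glucocorticoid-responsive genes, and 0 genes passed the test.

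Glucocorticoid-responsive genes had the highest median of the lists outside cell type markers. Glucocorticoid hormone is released in systemic inflammation and its receptor induces genes that limit it. Of 12 listed genes 8 rose in each arm, and 9 had a positive and 3 a negative interaction (median 0.37; -0.00424 without MIA_PLX_SAL replicate 4). Fkbp5 (ENSMUSG00000024222.17), a co-chaperone that limits receptor signalling, was at 74.7, 42.9, 94.9 and 121 CPM in the CON:PLX saline libraries and 31.4, 48.2 and 28.4 CPM in the MIA:PLX saline libraries, with overlapping groups. The LPS libraries stood at 146 to 389 CPM (median 348) in CON:PLX and 185 to 387 CPM (median 359) in MIA:PLX. Fkbp5 rose by 1.84 ± 0.343 (CON:PLX) and by 3.20 ± 0.421 (MIA:PLX), with edgeR adjusted p of 8.81e-05 and 1.04e-06, and its interaction was 1.36 ± 0.490 (unadjusted p 0.00903), or 0.58 with the marked libraries included. Zbtb16, a zinc finger factor induced by glucocorticoid and named after its values were seen, was at 2.91 to 96.5 CPM (median 87.6) in CON:PLX and 69.3 to 196 CPM (median 102) in MIA:PLX after LPS.

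The genes with the smallest unadjusted p did not pass after adjustment, and their values are a description. The 8 named genes with a positive value were Mxd1, Fut11, Pus10, Fkbp5, Dcbld2, Abl2, Pik3cb and Stim1, after 7 predicted genes without a name were skipped. Mxd1 (ENSMUSG00000001156.9), a repressor that opposes MYC, was at 25.6, 28.9, 27.0 and 21.1 CPM in the CON:PLX saline libraries and 21, 21.8 and 20.9 CPM in the MIA:PLX saline libraries. After LPS it was at 24.4 to 45.8 CPM (median 35) in CON:PLX and 23.9 to 272 CPM (median 97.4) in MIA:PLX, so the arms overlapped, but 4 of the 6 MIA:PLX libraries lay above the highest CON:PLX library. Mxd1 rose by 2.41 ± 0.495 in MIA:PLX (edgeR adjusted p 0.000495), and its change in CON:PLX was 0.45 ± 0.408 (adjusted p 0.438). The interaction was 1.97 ± 0.616 (edgeR unadjusted p 0.00303). With single libraries left out it ran from 1.48 without MIA_PLX_LPS replicate 5 to 2.18 without MIA_PLX_LPS replicate 2. Abl2, a tyrosine kinase of the cytoskeleton, was at 86.3, 85.1, 102 and 97.3 CPM in the CON:PLX saline libraries and 65.6, 82.9 and 67.2 CPM in the MIA:PLX saline libraries, with MIA:PLX lower throughout, and at 113 to 221 CPM (median 177) in CON:PLX and 182 to 359 CPM (median 213) in MIA:PLX after LPS. Its interaction was 0.78 ± 0.286.

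The 8 with a negative value were Ttr, Spcs1, Elob, Copz1, Nedd8, Cnih1, Gpr180 and Tlnrd1, with no predicted gene skipped. Spcs1, a subunit of the signal peptidase complex, was at 24.6, 23.9, 22.1 and 23 CPM in the CON:PLX saline libraries and 39.8, 27.5 and 31.3 CPM in the MIA:PLX saline libraries, with MIA:PLX higher throughout. LPS libraries stood at 35.7 to 54.8 CPM (median 41.9) in CON:PLX and 23.9 to 38.4 CPM (median 32.4) in MIA:PLX. Its interaction was -0.95 ± 0.281 (95% interval -1.52 to -0.37). Elob, a subunit of elongin and of ubiquitin ligases, was at 13.4, 13.9, 11.2 and 8.44 CPM in the CON:PLX saline libraries and 24.9, 20.7 and 18.1 CPM in the MIA:PLX saline libraries, again without overlap, and at 25.7 to 45.3 CPM (median 38.5) in CON:PLX and 18.0 to 43.0 CPM (median 25.4) in MIA:PLX after LPS. The value for Elob was -1.22 ± 0.383, for Copz1, a coatomer subunit, -1.05 ± 0.337, and for Nedd8, a ubiquitin-like modifier, -1.23 ± 0.414. In these 4 genes the LPS groups overlapped.

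Ttr, a thyroid hormone carrier made in quantity by the choroid plexus, stood at 2.80, 3.76, 0 and 0.973 CPM in the CON:PLX saline libraries and 2.52, 430.2 and 0.313 CPM in the MIA:PLX saline libraries and at 0 to 27.8 CPM (median 2.90) in CON:PLX and 0 to 0.689 CPM (median 0) in MIA:PLX after LPS. Its interaction was -11.26 ± 2.79, and -4.67 without MIA_PLX_SAL replicate 3. Enpp2, an autotaxin also made by the choroid plexus and named after its values were seen, was at 97.9 CPM in that library, and its interaction of -5.42 ± 1.64 was 0.30 without it. Summed over 12 choroid plexus genes, a list chosen after these values were seen, levels were 13.3 to 22 CPM in CON:PLX saline, 12.2 to 579.5 CPM in MIA:PLX saline, 11.7 to 44.2 CPM in CON:PLX LPS and 13.1 to 31.1 CPM in MIA:PLX LPS libraries. In MIA_PLX_SAL replicate 3 the list's Otx2, Folr1 and Clic6 were also at their highest, at 0.715, 1.43 and 3.57 CPM. Of the whole list only Kcnj13 and Aqp1 were highest in other libraries. Kcnj13 reached 24.8 CPM in MIA_PLX_LPS replicate 5, and Aqp1 3.12 CPM in MIA_PLX_LPS replicate 2. Whether cells of that kind had a part in these values was not tested.

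Blood cell genes also had a library that stood apart, CON_PLX_SAL replicate 2, which held the highest saline levels of S100a8, Chil3 and Hbb-bs. The 6 measured neutrophil genes had a median interaction of 3.09 and 2 erythroid genes one of 5.30. S100a8, an alarmin of neutrophils, was at 0, 19, 0 and 0.973 CPM in the CON:PLX saline libraries and 1.40, 0 and 2.19 CPM in the MIA:PLX saline libraries. Its interaction was 2.58 ± 1.62, and -1.59 without CON_PLX_SAL replicate 2; for Chil3, a monocyte and macrophage gene, the values were 4.17 ± 1.78 and 1.11. Hbb-bs, a beta globin, was at 0.399, 70.3, 7.37 and 14.9 CPM in the CON:PLX saline libraries and 1.40, 0.715 and 0 CPM in the MIA:PLX saline libraries, and its interaction was 5.45 ± 1.98. Summed over 5 erythroid genes, levels were 1.20 to 121 CPM in CON:PLX saline, 1.25 to 2.24 CPM in MIA:PLX saline, 0.554 to 4.81 CPM in CON:PLX LPS and 1.97 to 7.64 CPM in MIA:PLX LPS libraries. Over 7 neutrophil genes they were 339.96 to 416 CPM in CON:PLX saline, 307 to 392 CPM in MIA:PLX saline, 76.8 to 362 CPM in CON:PLX LPS and 119.6 to 258 CPM in MIA:PLX LPS libraries, most of it Csf3r. Over 6 monocyte genes they were 8.79 to 17.2 CPM in CON:PLX saline, 8.13 to 10.9 CPM in MIA:PLX saline, 40.9 to 633 CPM in CON:PLX LPS and 109 to 302 CPM in MIA:PLX LPS libraries. Fn1 alone reached 624 CPM, in CON_PLX_LPS replicate 5, and the next highest member, Chil3, reached 12.4 CPM. Of the 5 measured members, 3 rose and 1 fell in CON:PLX, and 4 rose and 1 fell in MIA:PLX. Ccr2 stood at 5.30 to 8.04 CPM in CON:PLX saline and 5.60 to 9.38 CPM in MIA:PLX saline libraries. After LPS it was at 0.569 to 6.52 CPM in CON:PLX and 0.518 to 2.43 CPM in MIA:PLX. Ly6g, which defines neutrophils, was at 0 in 16 of the 19 libraries. The part of blood cells in these values was not tested.

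Ribosomal protein genes had negative interactions throughout. At an adjusted p under 0.05 by edgeR, all 35 listed genes rose in CON:PLX and 12 in MIA:PLX, beside 17.5% and 11.8% of all genes. The median LPS change of the 35 was 1.27 in CON:PLX and 0.72 in MIA:PLX. All 35 interactions were negative, with a median of -0.55 beside -0.01 over all genes. Leaving out single libraries gave median interactions of -0.64 to -0.41. No member passed the interaction test by edgeR, and 3 had an unadjusted p under 0.05. Without PLX the median was 0.32. Rps18, a small-subunit protein, stood at 51.9, 64.5, 57.9 and 67.5 CPM in the CON:PLX saline libraries and 103, 102 and 108 CPM in the MIA:PLX saline libraries. After LPS it stood at 159.7 to 291 CPM (median 210.3) in CON:PLX and 114 to 272 CPM (median 228) in MIA:PLX, with overlap. Its interaction was -0.88 ± 0.411. Rpl13, a large-subunit protein, was at 257, 344, 336 and 293 CPM in the CON:PLX saline libraries and 491, 464 and 465 CPM in the MIA:PLX saline libraries and had -0.76 ± 0.368.

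The ribosomal genes of the saline libraries stood at different levels in the 2 arms. In 32 of the 35 genes every MIA:PLX saline library was above every CON:PLX saline library, beside 5.45% of all genes tested, and in 0 of the 35 did the LPS groups separate, beside 0.238% of all genes. Relative to the mean of the 19 libraries, the ribosomal genes had median levels of -1.05 to -0.656 in the CON:PLX saline libraries, -0.433 to -0.227 in the MIA:PLX saline libraries, 0.0239 to 0.807 in CON:PLX after LPS and -0.603 to 0.741 in MIA:PLX after LPS (log2). The lowest MIA:PLX LPS value belonged to replicate 2.

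Transcript length moved with the same libraries. Among protein-coding genes split into quintiles by their longest annotated transcript, the median interaction was -0.25, -0.09, -0.03, 0.02 and 0.05 from the shortest to the longest quintile, and 69.9% of the shortest and 43.9% of the longest quintile were negative. This split was chosen after seeing the data. The median level of the shortest quintile minus that of the longest, relative to the 19-library mean, was -0.360 to -0.280 in CON:PLX saline and -0.197 to -0.0159 in MIA:PLX saline, without overlap, and -0.0133 to 0.459 and 0.00652 to 0.319 after LPS, with overlap. Of the 35 ribosomal genes, 29 lay in the shortest quintile, and the part of transcript length in the ribosomal values was not tested. Transcripts annotated as TEC, a GENCODE class that awaits experimental evidence, and as antisense had positive medians, 0.34 over 933 and 0.29 over 400 genes. Other classes outside protein-coding genes had positive medians too. These were 0.31 for sense intronic genes, 0.19 for processed pseudogenes, 0.15 for processed transcripts and 0.08 for lincRNA genes. The median over protein-coding genes was -0.05. The libraries keep no strand information, so reads of an antisense gene and of its partner cannot be told apart.

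**Figure D5:**
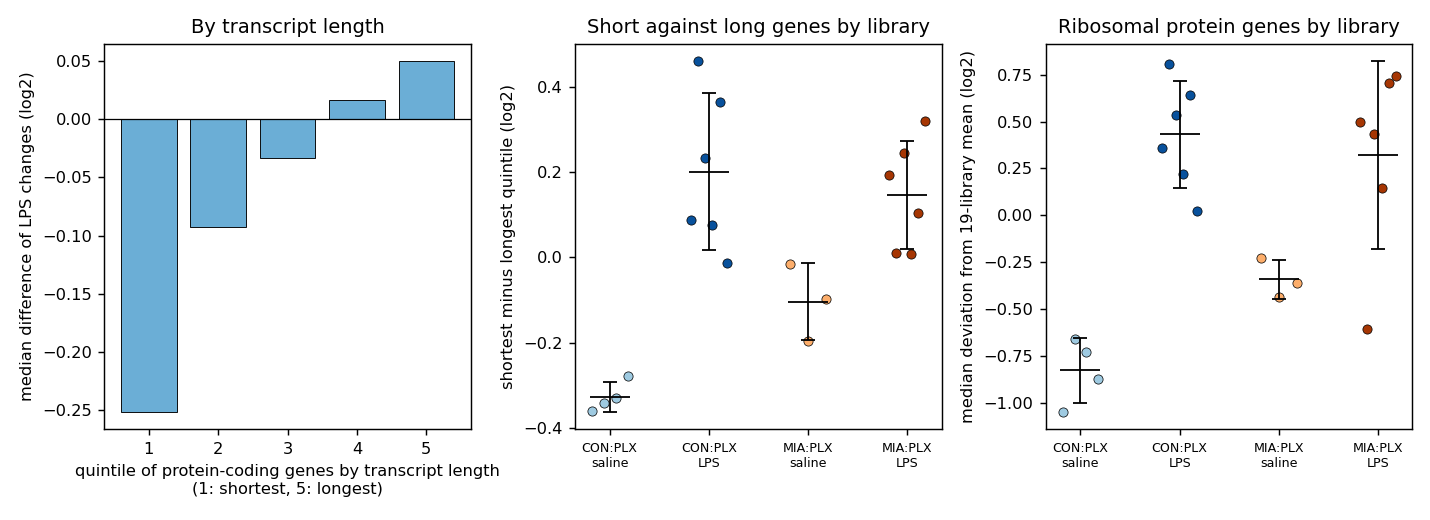
Left, median interaction (log2) of protein-coding genes by quintile of transcript length; middle, shortest minus longest quintile per library (log2); right, ribosomal protein genes per library (log2), with mean and SD per group in both. The median falls from 0.05 in the longest to -0.25 in the shortest quintile, and the saline groups of the 2 prenatal arms do not overlap in either measure.

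Against the arms without PLX, no gene passed the test of a difference. The three-way difference, the interaction with PLX minus the interaction without it, gave 0 genes (0%) by edgeR, with 215 positive (1.60%) and 225 negative (1.68%) at an unadjusted p under 0.05 and a median SE of 0.648. The interaction without PLX also gave 0 (0%), with 207 positive (1.54%) and 208 negative (1.55%). DESeq2 and voom gave 0 for the three-way difference. For Spcs1 the three-way value was -1.33 ± 0.401 (edgeR unadjusted p 0.00213), for Fkbp5 1.81 ± 0.686 and for P2ry12 -0.74 ± 0.675. The P2ry12 value takes in MIA_CON_LPS replicate 6, which held P2ry12 at 1773 CPM. Other libraries of that group held 240 to 443 CPM.

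The 2 parts of the interaction can be given separately. At saline, MIA:PLX against CON:PLX gave 0 genes (0%) by edgeR and 164 (1.22%) at an unadjusted p under 0.05. After LPS it gave 2 (0.0149%), both higher in MIA:PLX: Sbsn, an epidermal secreted protein, by 3.19, and Ppl, a protein of the cornified envelope, by 2.25 on the log2 scale (edgeR adjusted p 0.0194 for both). Both genes were named after their values were seen. Sbsn was at 4.39, 3.31, 2.90 and 3.57 CPM in the CON:PLX saline libraries and 3.36, 4.64 and 5.0 CPM in the MIA:PLX saline libraries and at 1.06 to 2.36 CPM (median 1.53) in CON:PLX and 2.95 to 40.7 CPM (median 5.60) in MIA:PLX after LPS, where the groups did not overlap. Ppl was at 2.20, 1.33, 1.12 and 1.95 CPM in the CON:PLX saline libraries and 2.52, 2.50 and 2.81 CPM in the MIA:PLX saline libraries and at 0 to 2.01 CPM (median 1.63) in CON:PLX and 3.10 to 10.2 CPM (median 6.13) in MIA:PLX after LPS, also without overlap. Their interactions were 2.91 ± 0.900 and 1.59 ± 0.680, neither of which passed.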

How the data were processed

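RNA was measured in microglia sorted from the striatum, amplified linearly by a kit without strand information or ribosomal RNA depletion, per the labels' protocols. The authors deposited estimated counts per gene for 55487 identifiers in 39 libraries, of which 14.71% of nonzero values are not whole; they were rounded before fitting. The submitters' processing notes name STAR, RSEM and DESeq2, with neither version nor role, and the genome build is not given in the sources used here. Symbols came from GENCODE M21 (55141 identifiers matched).

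Genes were kept by filterByExpr (minimum count 10, minimum total 15), and 37 libraries in 8 groups were fitted by edgeR 4.0.16 in R 4.3.3 with TMM normalization and robust quasi-likelihood; a gene was called at a Benjamini-Hochberg adjusted p under 0.05 over 13420 genes, two-sided. An SE is the log2 change divided by the square root of F. Scores used log2 CPM with a prior count of 2, and the response difference was tested by exactly permuting CON and MIA labels within each injection. Other tools were DESeq2 1.42.0 and limma 3.58.1. The interaction test and the permutation were also run on simulated data, drawn from the fitted model and from normal values. No outlying libraries were simulated, so these runs do not cover that feature of the data. Intervals cover the spread between libraries only.

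Genes were named by rule. Among genes whose mean log2 CPM reached 3, these were the 8 positive and 8 negative ones of lowest unadjusted p. Each list added up to 3 members of lowest interaction p, and its member of highest interaction p. To these came 13 fixed genes. Others are marked as chosen after their values were seen. The members and 31 lists were chosen with earlier results of these data known. Promoter sequences are from RefSeq (GRCm38.p6). The libraries titled exclude, MIA_PLX_SAL replicate 1 and CON_CON_LPS replicate 3, were left out. Alternatives were RLE size factors, other tools, filters, libraries, prior counts and a replicate block.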

Additional observations from a re-analysis of the deposited data

Results flagged for a closer look

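Dixon's limit was applied in groups of 4 to 10 libraries to named genes, the LPS response score and the shortest-minus-longest quintile value. In 13 of 135 combinations of measure and group a library's gap to its neighbours passed it, where chance gives about 1 in 20. The combinations share libraries, and some genes were named after their values were seen, so this rate is only a rough guide. The cause of these values was not tested. Values are log2 CPM.

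CON_PLX_LPS replicate 2 was high for Olfml3 at 9.58 (others 6.43 to 7.52) and for Il1b at 9.88 (others 7.53 to 8.04), and low for Zbtb16 at 1.81 (others 5.94 to 6.60). CON_PLX_LPS replicate 1 was high for Ccl5 at 8.96 (others 5.28 to 6.24) and low for Tlr4 at 5.32 (others 6.51 to 7.07). CON_PLX_LPS replicate 6 was low for Tnf at 7.65 (others 9.10 to 9.53).

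MIA_PLX_LPS replicate 2 was low for Cxcl10 at 3.96 (others 6.05 to 6.79), for Ccl5 at 4.47 (others 5.75 to 6.30) and for S100a8 at -0.0788 (others 3.43 to 5.12). This is the library with 9.16% mitochondrial ribosomal RNA. MIA_PLX_LPS replicate 5 was low for Fkbp5 at 7.54 (others 8.30 to 8.60).

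Among the saline libraries, CON_PLX_SAL replicate 3 was high for Ifi207 at 3.07 (others 2.17 to 2.32) and replicate 1 for Fcgr4 at 2.96 (others 2.45 to 2.52). The LPS response score of CON_PLX_SAL replicate 1 was -0.297, below the other 3 (-0.211 to -0.193).

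MIA_PLX_SAL replicate 1, which enters no comparison, had an LPS response score of 0.573, while the saline libraries ran from -0.298 to -0.177, and its P2ry12 level was 1853 CPM. With both libraries titled exclude included, this one and CON_CON_LPS replicate 3, the median interaction of the interferon-stimulated genes was -1.33 in place of -0.35.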

How the results depend on the processing

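The count of genes with an interaction was 0 under RLE size factors, DESeq2, voom, both filters, an adjusted p under 0.1, the 19 libraries alone, the libraries titled exclude included, MIA_CON_LPS replicate 6 left out, mitochondrial genes removed and each library left out, and the three-way count was 0 under those of them that were run. Genes at an unadjusted p under 0.05 numbered 289 to 579 when a library was left out. With a replicate block the count was also 0 (282 positive and 244 negative at an unadjusted p under 0.05). The difference in response size was then -0.0923 (exact permutation p 0.535). Deviations of same-numbered libraries had a median r of -0.003 over 23 pairs, with 3 above 0.1. For different numbers it was 0.003 over 109 pairs, with 8 above 0.1. Of 19 libraries, 6 correlated best with their own number. These few correlations cannot decide whether libraries of the same number belong together. The difference in response size ran from -0.12 to 0.058 with a library left out; it was 0.058 without CON_PLX_LPS replicate 1, 0.00596 without replicate 5 and 0.0149 without MIA_PLX_LPS replicate 2, against -0.0395, and the cause was not tested. Other settings gave -0.233 (titled libraries included) to -0.0219 (lower genes only). Of 1536 values of 53 genes, 25 moved by more than 1 SE, as did 4 of 290 list medians; with the titled libraries the chemokine median was -1.33, the glucocorticoid median -0.14, and the interactions of Saa3 and Lcn2 were -5.39 and -2.15. By voom 6432 and 4596 genes were called for LPS in CON:PLX and MIA:PLX, against 4228 and 2990. Precision is limited by 3 MIA:PLX saline libraries and by totals from 1510020 counts.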
